A study of Mus musculus with 6 samples.

Results

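The genes described here encode proteins that repackage the chromatin of developing sperm: the protamines Prm1 and Prm2, the protamine-like gene Prm3, the transition proteins Tnp1 and Tnp2, the spermatid linker histone Hils1, and Brdt, a bromodomain protein of the testis. They were taken as all probe sets (groups of short probes that report 1 transcript) of the Affymetrix Mouse430A_2 array annotated to these 7 symbols, which gave 11 of the 22626 probe sets tested and 7 of the 12393 genes. Expression was measured as a log2 summary per probe set in 3 arrays of spermatogonial stem cells and 3 arrays of total testicular cells, 1 sample per array. All samples came from transgenic mice of the Stra8-CD4HAglo line, in which a shortened Stra8 promoter drives a surface marker built from human CD4. The stem cell samples were the cells that magnetic beads against this marker pulled out of testis cell suspensions, with 50 males pooled for each preparation. The other samples are titled total testicular cells, while their source text names cells of the same line that lack the marker, and no source used here gives the age of the animals.

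In the haploid spermatid, most histones leave the DNA and are replaced first by transition proteins and then by protamines, small arginine-rich proteins that compact the sperm nucleus. The genes of these proteins are transcribed in round spermatids, and their messenger RNAs are stored before they are translated. Spermatogonial stem cells, the germ cells that sustain sperm production, lie several cell generations before that stage. The comparison therefore asks whether transcripts of the last steps of sperm formation were lower in the stem cell preparations than in total testicular cells.

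Facts of the arrays bear on every value below. Stem cell replicate 1 stood apart from the other arrays, correlating at 0.970 to 0.978 with the other stem cell arrays over probe sets, whereas the total testicular cell arrays correlated with one another at 0.992 to 0.995. All 10 macrophage markers listed rose in the stem cell arrays, and their summed level ran from 11.39 to 13.31 on the log2 scale there, against 7.48 to 8.16 in the total testicular cell arrays. It was highest in stem cell replicate 1. All 4 measured Leydig cell markers were higher at an unadjusted p under 0.05 and 0 of 4 at an adjusted one in limma, with a median difference of 1.89. Their summed level ran from 9.55 to 11.58 in the stem cell arrays, highest in replicate 1, against 7.91 to 9.21 in the total testicular cell arrays. Of 7 measured Sertoli cell markers 1 passed, Clu (2.02, limma adjusted p = 0.0234), and the median difference was 0.11. Of all genes, 1.63% were higher and 0.137% lower at an adjusted p under 0.05 in limma. Before adjustment, 11.8% of all genes were higher and 13.1% lower with p under 0.05. Of 14 measured markers of undifferentiated spermatogonia, 0 passed an adjusted p of 0.05 in limma (unadjusted, 1 was higher and 1 lower at p under 0.05). Their median level lay between 2.49 and 2.73 in the stem cell arrays, against 2.65 to 2.84 in the total testicular cell arrays, near the background of 2.37 set by bacterial control probe sets, and Lin28a and Neurog3 lay below it in both groups. Clu, Lin28a and Neurog3 were named after their values were seen. The labels do not say whether the arrays of 1 group came from separate pools of animals, so the p-values measure the spread between these samples. In RNA of mixed cells, fewer cells of a type and less RNA per cell cannot be told apart.

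Transcripts of all 7 genes were detected well above the background of 2.37 in both groups, with no brightest probe set under 8.04 on any array, and none of them passed the test of a difference. Their log2 differences (stem cells minus total testicular cells) lay between -0.36 for Brdt and -0.05 for Prm1, with a median of -0.20, taking for each gene its brightest probe set. All 7 differences were below 0 (5 of 7 with quantile normalization, which gave a median of -0.15, against -0.07 for all genes), as were 57.0% of those of all 12393 genes, whose median was -0.05. At an adjusted p under 0.05 in limma, 0 of the 7 genes passed in either direction, beside a background of 0.137% of genes lower and 1.63% higher, and at an unadjusted p under 0.05 also 0 of 7, beside 13.1% lower and 11.8% higher. Among the 11 probe sets 0 passed as well, beside 1.55% of all probe sets in either direction. Without stem cell replicate 1 the median of the 7 differences was -0.08, against -0.04 for all genes, with all 7 still below 0. It was -0.31 without stem cell replicate 3 and -0.11 without total testicular cell replicate 3, against -0.09 and -0.05 for all genes. Within fluidics round 1 (stem cell replicate 1 against total testicular cell replicates 1 and 3, washed together) the 7 differences ran from -0.73 for Prm3 to -0.18 for Prm1. Within round 3 (replicate 2 of each group) they ran from -0.13 for Tnp1 to 0.014 for Prm2, with 5 of 7 below 0, and stem cell replicate 3 was alone in its round.

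**Figure D1:**
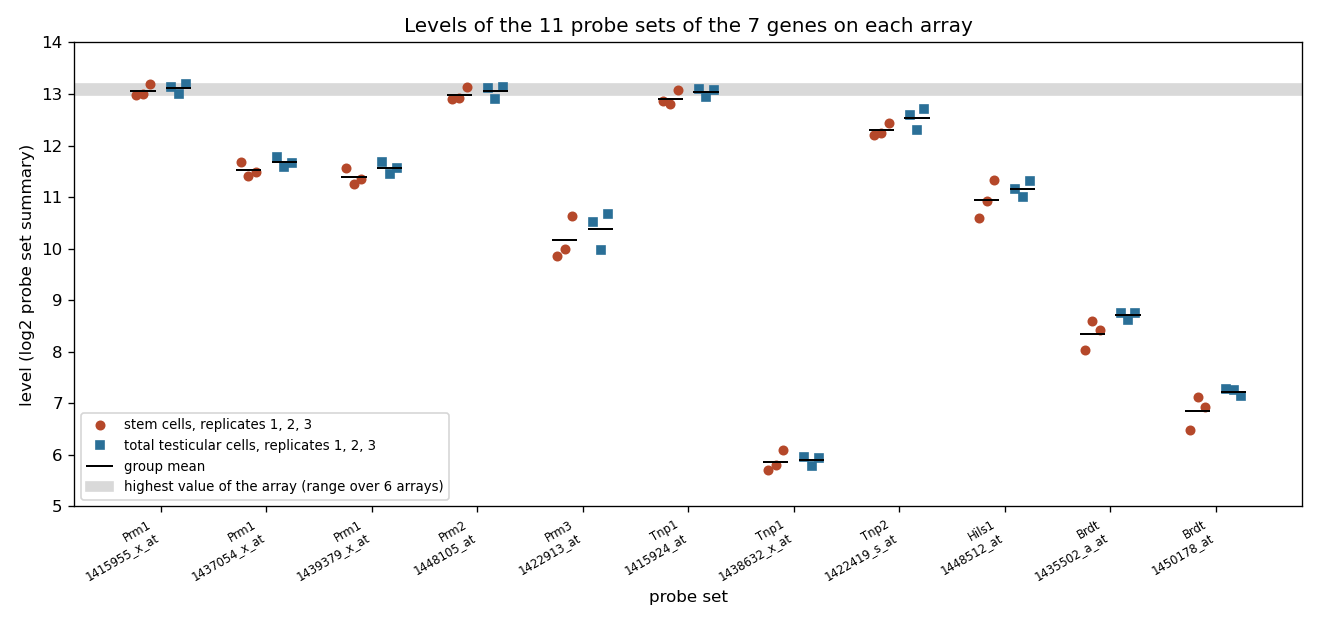
Level of each of the 11 probe sets (log2 probe set summary, vertical axis) in the 3 stem cell arrays (circles) and the 3 total testicular cell arrays (squares), with group means as bars and the range of the arrays' highest values in grey. The brightest probe sets of Prm1, Prm2 and Tnp1 lie at the top of the arrays in both groups, and the groups stand apart, by small margins, for the 2 probe sets of Brdt.

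Prm1 and Prm2 encode the protamines that pack the DNA of mouse sperm. The brightest of 3 probe sets of Prm1, 1415955_x_at, read 12.99, 13.00 and 13.19 in the stem cell arrays, against 13.13, 13.01 and 13.20 in the total testicular cell arrays. The groups overlapped, and the difference of -0.05 ± 0.08 (SE, n = 3 per group; 95% confidence interval -0.24 to 0.14, limma adjusted p = 0.740) was smaller than the spread among the arrays of 1 group. This probe set was the highest value of the whole array on 2 stem cell arrays and 2 total testicular cell arrays, and at most 0.043 log2 units below it on the others. The suffix _x_at marks probe sets in which some probes may also match other transcripts. The other probe sets of Prm1 had 1.30 to 1.83 log2 units of room below the highest value. One of them, 1437054_x_at, read 11.68, 11.41 and 11.49 in the stem cell arrays, against 11.77, 11.58 and 11.67 in the total testicular cell arrays. Here the ranges of the groups again overlapped, with a difference of -0.15 ± 0.10 (SE, limma adjusted p = 0.409). The last, 1439379_x_at, differed by -0.17 ± 0.11 (SE, limma adjusted p = 0.377). With quantile normalization the brightest probe set changed sign, to 0.013 (limma adjusted p = 0.924), while the other probe sets stayed below 0, at -0.13 and -0.19 (limma adjusted p = 0.418 and 0.289).

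Prm2 had 1 probe set, 1448105_at, which read 12.91, 12.92 and 13.13 in the stem cell arrays, against 13.12, 12.90 and 13.13 in the total testicular cell arrays. The third replicates of the groups read the same value, and the lowest array of all was total testicular cell replicate 2. The difference was -0.06 ± 0.09 (SE, 95% confidence interval -0.27 to 0.14, limma adjusted p = 0.712). Prm2 ranked between 2 and 5 from the top on the 6 arrays. With quantile normalization the difference of Prm2 changed sign, to 0.0042 (limma adjusted p = 0.983), so no direction can be given for it.

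Prm3 lies between Prm2 and Tnp2 in the same gene cluster, although its product is an acidic protein and not a DNA-packing protamine. Its probe set 1422913_at read 9.87, 9.99 and 10.63 in the stem cell arrays, against 10.52, 9.98 and 10.67 in the total testicular cell arrays. Stem cell replicate 3 was as high as the upper total testicular cell arrays, and total testicular cell replicate 2 was as low as the lower stem cell arrays. Prm3 averaged 10.16 ± 0.41 in stem cells and 10.39 ± 0.36 in total testicular cells (SD, n = 3 each), a difference of -0.23 ± 0.23 (SE, 95% confidence interval -0.74 to 0.29, limma adjusted p = 0.582). With at least 2.53 log2 units of room below the highest value, Prm3 was not near the top of any array. Without stem cell replicate 1 its difference was -0.08 (limma adjusted p = 0.892).

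Tnp1 and Tnp2 encode the transition proteins, which occupy the DNA between the removal of histones and the arrival of protamines. The probe set 1415924_at of Tnp1 read 12.86, 12.81 and 13.07 in the stem cell arrays, against 13.10, 12.94 and 13.08 in the total testicular cell arrays. Stem cell replicate 3 fell inside the range of the total testicular cell arrays and the other stem cell arrays below it. The difference was -0.13 ± 0.09 (SE, 95% confidence interval -0.33 to 0.07, limma adjusted p = 0.399), on a probe set that lay within 0.20 log2 units of the highest value on all 6 arrays. A dimmer probe set of Tnp1, 1438632_x_at, had 7.10 log2 units of room or more. It read 5.70, 5.81 and 6.09 in the stem cell arrays, against 5.96, 5.79 and 5.93 in the total testicular cell arrays. Its difference of -0.03 ± 0.17 (SE, limma adjusted p = 0.944) turned to 0.036 with quantile normalization and to 0.056 without stem cell replicate 1.

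Tnp2 had the lowest adjusted p among the protamine and transition protein genes, and did not pass. Its probe set 1422419_s_at read 12.20, 12.24 and 12.44 in the stem cell arrays, against 12.59, 12.30 and 12.72 in the total testicular cell arrays. Stem cell replicate 3 lay above total testicular cell replicate 2, so the groups overlapped by 1 array each. The difference was -0.24 ± 0.12 (SE, 95% confidence interval -0.50 to 0.02, limma unadjusted p = 0.0706, adjusted p = 0.250). It lay 0.49 to 0.79 log2 units below the highest value of the array.

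Probe sets this close to the top of the array can hide a difference, since bright probes may no longer respond in proportion to the transcript. Within 1 log2 unit of the highest value on all 6 arrays lay 10 probe sets in all, and 4 of these were the brightest probe sets of Prm1, Prm2, Tnp1 and Tnp2. Over the 6 arrays, those 10 had a median range of 0.24 log2 units, against 0.45 for the 306 probe sets with a mean level from 10 to 12 and 0.60 for all probe sets tested. Of the 4, the probe sets of Prm1, Prm2 and Tnp1 had ranges of 0.21, 0.23 and 0.30, and that of Tnp2 had 0.51. Among the probe sets with room above them, Prm3, Hils1 and the brighter one of Brdt had ranges of 0.80, 0.73 and 0.71, whereas the dimmer ones of Prm1 had 0.36 and 0.42 and that of Tnp1 had 0.39. Whether saturation narrowed the values, and how far, was not tested, since probe intensities were not used here. The rank of a probe set describes its room on the array and not how abundant its transcript was next to others.

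The promoter sequences of the 4 genes at the top of the arrays are shown because their probe sets lay within 1 log2 unit of the highest value in both groups. Each holds 250 bases before and 50 bases after the start of the gene, 5′ to 3′ on the strand of the gene, from RefSeq (GRCm38.p6). Capitals mark the motif TGANNTCA, which takes in variants of the cyclic AMP response element bound by CREM, and the TATA motifs TATAA and TATATA.
Prm1 (chr16:10796774-10797073, minus strand): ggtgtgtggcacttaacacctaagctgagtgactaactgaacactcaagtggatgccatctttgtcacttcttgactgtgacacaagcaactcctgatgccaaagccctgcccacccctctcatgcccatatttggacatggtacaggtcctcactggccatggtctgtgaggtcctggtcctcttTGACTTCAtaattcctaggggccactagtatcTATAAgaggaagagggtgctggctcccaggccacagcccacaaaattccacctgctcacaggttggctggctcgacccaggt
Prm2 (chr16:10792056-10792355, minus strand): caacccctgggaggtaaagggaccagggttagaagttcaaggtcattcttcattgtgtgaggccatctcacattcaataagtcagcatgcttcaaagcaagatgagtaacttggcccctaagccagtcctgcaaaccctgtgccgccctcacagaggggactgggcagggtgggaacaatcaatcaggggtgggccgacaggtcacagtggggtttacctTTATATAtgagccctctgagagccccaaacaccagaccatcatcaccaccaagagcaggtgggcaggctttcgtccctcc
Tnp1 (chr1:73015850-73016149, minus strand): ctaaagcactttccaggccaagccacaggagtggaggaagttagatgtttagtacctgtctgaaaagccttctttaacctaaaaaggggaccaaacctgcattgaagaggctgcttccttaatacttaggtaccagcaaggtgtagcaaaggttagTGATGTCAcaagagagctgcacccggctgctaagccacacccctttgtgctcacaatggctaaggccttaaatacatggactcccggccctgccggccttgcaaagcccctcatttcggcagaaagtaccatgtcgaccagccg
Tnp2 (chr16:10788606-10788905, minus strand): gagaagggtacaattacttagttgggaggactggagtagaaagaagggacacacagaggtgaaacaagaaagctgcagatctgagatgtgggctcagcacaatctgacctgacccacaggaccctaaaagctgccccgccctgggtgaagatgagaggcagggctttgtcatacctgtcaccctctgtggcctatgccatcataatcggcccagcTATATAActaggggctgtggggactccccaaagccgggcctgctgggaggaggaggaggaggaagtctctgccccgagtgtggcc
Both strands were searched, and TATAA and TATATA overlap where both occur. The full element TGACGTCA was found in 0 of the 7 promoters and in 1.79% of 32851 promoters in the table. TGANNTCA occurred in 4 of the 7, those of Prm1 (as TGACTTCA at position -64 from the start), Tnp1 (as TGATGTCA at position -94), Prm3 and Hils1, and in 14.1% of all promoters. TATAA occurred in Prm1, Prm2 and Tnp2 and in 24.9% of all promoters, TATATA in Prm2 and Tnp2 and in 5.67%, and CCAAT in Prm3, Hils1 and Brdt and in 37.4%. These matches describe letters and not binding. In the RefSeq table of genes, Tnp2, Prm3, Prm2 and Prm1 are direct neighbours on chromosome 16, whereas Tnp1, Hils1 and Brdt lie alone on chromosomes 1, 11 and 5.

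Hils1 encodes a linker histone-like protein of elongating spermatid nuclei. Its probe set 1448512_at read 10.60, 10.92 and 11.33 in the stem cell arrays, against 11.15, 10.99 and 11.31 in the total testicular cell arrays. Stem cell replicate 3 was the highest of all 6 arrays and stem cell replicate 1 the lowest, so the stem cell range enclosed that of the total testicular cells. Hils1 averaged 10.95 ± 0.37 in stem cells and 11.15 ± 0.16 in total testicular cells (SD, n = 3 each), a difference of -0.20 ± 0.17 (SE, 95% confidence interval -0.60 to 0.19, limma adjusted p = 0.507). Without stem cell replicate 1 the difference was -0.03 (limma adjusted p = 0.940).

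Brdt encodes a protein with paired bromodomains that binds acetylated histones, acts in the gene expression of spermatocytes and spermatids, and is needed for the chromatin change of spermatids. Its transcript appears earlier, in meiosis. The probe set 1435502_a_at read 8.04, 8.59 and 8.42 in the stem cell arrays, against 8.75, 8.62 and 8.74 in the total testicular cell arrays. All 3 stem cell arrays lay below all 3 total testicular cell arrays, with the nearest arrays 0.03 apart. The second probe set, 1450178_at, read 6.49, 7.12 and 6.93 in the stem cell arrays, against 7.27, 7.27 and 7.15 in the total testicular cell arrays, and again the groups did not overlap. Brdt was the 1 gene of the 7 for which the groups stood apart, and 19.2% of all genes had stem cell arrays that all lay lower. Neither difference passed, at -0.36 ± 0.16 for the first (SE, 95% confidence interval -0.72 to 0.01, limma unadjusted p = 0.0545, adjusted p = 0.221) and -0.38 ± 0.19 for the second (SE, limma unadjusted p = 0.0713, adjusted p = 0.252). Stem cell replicate 1 carried much of both: without it they were -0.20 and -0.20 (limma adjusted p = 0.365 and 0.421). Without stem cell replicate 2 they were larger, at -0.47 and -0.52 (limma adjusted p = 0.0952 and 0.102). Without stem cell replicate 3 they were -0.39 and -0.42. The brighter probe set differed by -0.71 within fluidics round 1 and by -0.03 within round 3, and the dimmer one by -0.72 and -0.14. The promoter of Brdt, in which neither TATA motif was found, had 64.7% G and C, against 50.7% to 56.0% in the promoters printed above.

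**Figure D2:**
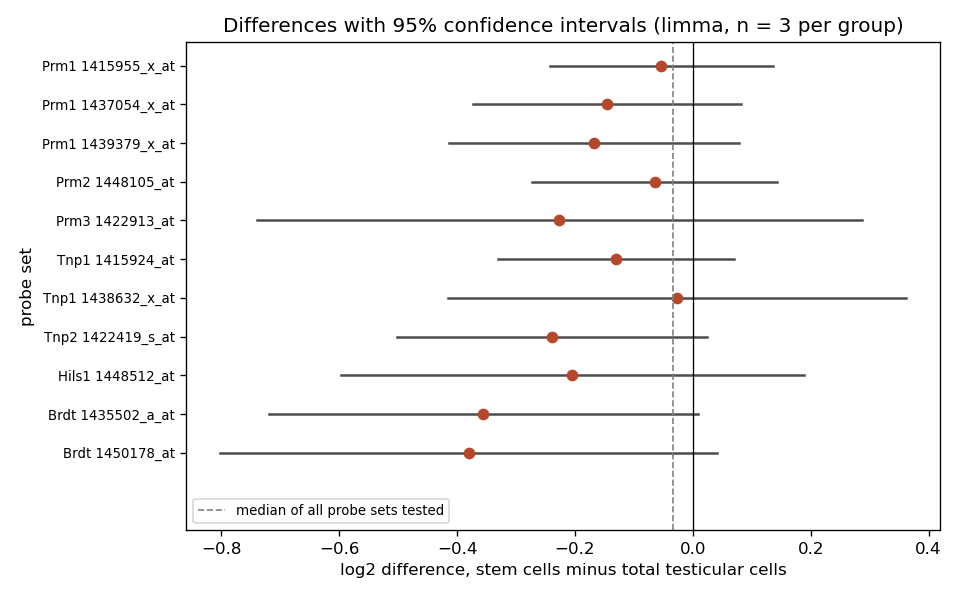
Log2 difference between stem cells and total testicular cells for each of the 11 probe sets (points) with its 95% confidence interval from limma (lines, n = 3 per group), beside 0 (solid line) and the median of all probe sets tested (dashed line). All 11 points lie below 0 (3 of them turn above it with quantile normalization) and all 11 intervals include it.

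The size of difference that these arrays could miss varied among the genes. For Prm1 the interval of the fold (stem cells over total testicular cells) ran from 0.846 to 1.10, for Prm2 from 0.828 to 1.10 and for Tnp1 from 0.796 to 1.05, each on a probe set at the top of the array. For Tnp2, within 1 log2 unit of the top, it ran from 0.706 to 1.02. For Hils1 it ran from 0.661 to 1.14, for Prm3 from 0.599 to 1.22 and for Brdt from 0.607 to 1.01, with room on the array. On the dimmer probe sets, with room on the array, the intervals reached further down. For Prm1 they ran from 0.772 to 1.06 and from 0.751 to 1.06, and for Tnp1 from 0.750 to 1.28. A p that missed the threshold does not show equal levels.

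By their brightest probe sets, the genes shared much of their order among the arrays of 1 group. In the total testicular cells, replicate 2 was the lowest array for all 7 genes. In the stem cells, replicate 1 was the lowest for 6 of 7, Tnp1 being the exception, and replicate 3 the highest for 6 of 7, Brdt being the exception. The dimmer probe sets of Prm1 ran otherwise, with stem cell replicate 1 the highest of the stem cell arrays and replicate 2 the lowest. For the dimmer probe set of Brdt, total testicular cell replicate 3 was the lowest of its group. How many of all genes had the same lowest or highest array was not counted, so this order is not shown to be particular to the 7 genes. Prm3 lay 0.41 below its own 6-array mean in stem cell replicate 1 and 0.35 above it in stem cell replicate 3, a wider gap than its difference between the groups. Hils1 had its highest value of all in stem cell replicate 3, Prm2 had it in the third replicate of both groups, and the remaining 5 genes had it in total testicular cell replicate 1 or 3. The summed level of the macrophage markers was 13.31, 11.80 and 11.39 in stem cell replicates 1, 2 and 3 (log2 of summed linear levels). That of the 7 genes was 14.91, 14.93 and 15.17 there, against 15.17, 14.98 and 15.23 in the total testicular cell arrays. In this linear sum the bright probe sets of Prm1, Prm2, Tnp1 and Tnp2, near the top of the arrays, weigh most. The part of the macrophage transcripts in these values was not tested.

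**Figure D3:**
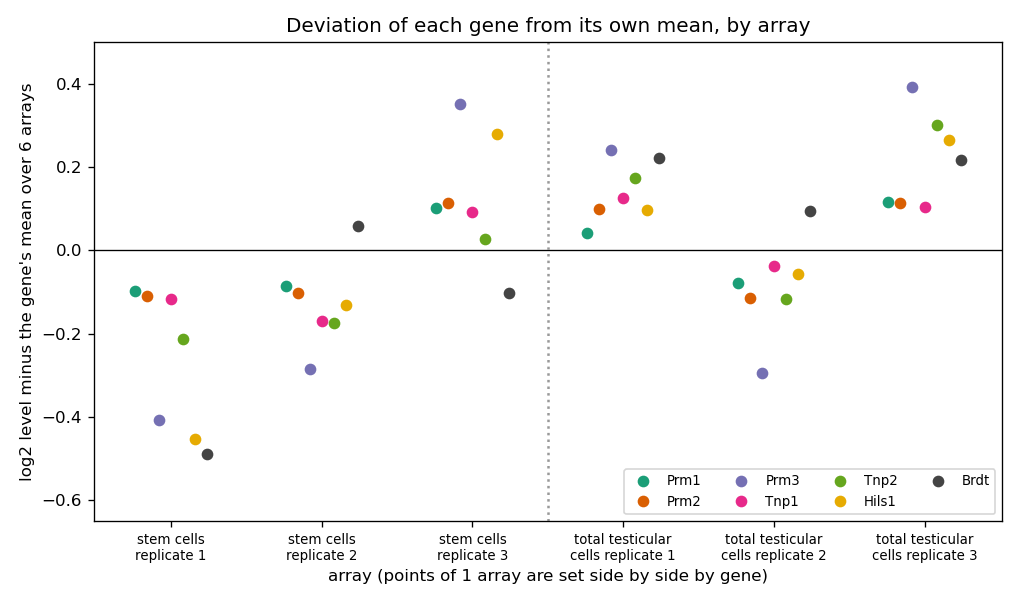
Deviation of each of the 7 genes from its own mean over the 6 arrays (log2 units, brightest probe set), for the 3 stem cell arrays at the left and the 3 total testicular cell arrays at the right. Total testicular cell replicate 2 is the lowest of its group for all 7 genes, and stem cell replicate 3 is above 0 for all but Brdt.

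By root mean square distance between centred log2 values over the 6 arrays, the genes most like the mean profile of Prm3, Hils1 and Brdt were 1700093K21Rik, Odf2, Grina, Fam234b and Saysd1, at distances of 0.031 to 0.044 log2 units, against a median of 0.29 over 12386 genes. Odf2 encodes a protein of the outer dense fibres of the sperm tail. The genes most like Brdt alone were Abcf2, 1700018F24Rik, Emc4, Lrrc46 and Ahcyl2, at 0.021 to 0.029, with differences of -0.33 to -0.41 between the groups (limma adjusted p = 0.177 to 0.263). With 6 arrays and 12386 genes, close profiles are common, so this is a description only.

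Brd2 and Brd3 are relatives of Brdt that most cell types express. Brd2 read 7.92, 8.51 and 8.03 in the stem cell arrays, against 8.59, 8.57 and 8.59 in the total testicular cell arrays. Its stem cell arrays all lay lower, at -0.43 ± 0.17 (SE, limma adjusted p = 0.173). Brd3 differed by -0.45 ± 0.24 (SE, limma adjusted p = 0.293), with its 3 probe sets from -0.77 to -0.39. Beside these, Brdt differed by -0.36, and 0 of the 3 genes passed (1 of 3, Brd2, had an unadjusted p under 0.05). Brd2 passed without stem cell replicate 2 (-0.60, limma adjusted p = 0.0372), as did 4.25% of all genes in that direction.

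The other genes of the exchange of histones for protamines ranged more widely, from -0.66 to 0.85, around the same median of -0.20 as the 7 genes. They are histone variants, histone-modifying and histone-removing factors, enzymes of DNA break repair, kinases, and regulators of transcription and translation in spermatids. Of 45 genes listed, 35 had a probe set annotated to 1 gene. At an adjusted p under 0.05 in limma 0 of 35 passed, and 8 were lower and 1 higher with p under 0.05 before adjustment, beside 13.1% lower and 11.8% higher of all genes. Differences were below 0 for 32 of 35, beside 57.0% of all genes. The lowest were Camk4 (-0.66, limma adjusted p = 0.192), a kinase that phosphorylates protamine 2, Parg (-0.64, limma adjusted p = 0.142), which breaks down poly(ADP-ribose), and Epc1 (-0.52, limma adjusted p = 0.161), a subunit of the NuA4 histone acetyltransferase. The probe sets of Camk4 ranged up to -0.01. The highest were Top2b (0.85, limma adjusted p = 0.0789), a topoisomerase that cuts and rejoins DNA, Paip2 (0.39, limma adjusted p = 0.263), an inhibitor of poly(A)-binding protein, and Taf7l (0.24, limma adjusted p = 0.488), a germ cell subunit of the transcription factor TFIID. Top2b read 4.69, 4.33 and 4.65 in the stem cell arrays, against 3.36, 3.92 and 3.86 in the total testicular cell arrays, without overlap, while its probe sets reached down to -0.02. Without stem cell replicate 2, 4 of the 35 fell and 1 rose: Epc1 (-0.69), Parg (-0.88), Ddx25 (-0.53) and Elavl1 (-0.81) were lower and Top2b (0.96) higher, with limma adjusted p from 0.0330 to 0.0485. In that setting 4.25% of all genes fell and 3.34% rose. The other probe set of Elavl1 lay at 0.24 over all arrays, on the opposite side of 0. Ddx25, a germ cell RNA helicase, and Elavl1, an RNA-binding protein, were named after their values were seen.

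Other spermatid genes, of the acrosome, the tail and metabolism, also had small differences. Of 28 listed, 20 were measured, 0 passed an adjusted p under 0.05 in limma, and before adjustment 4 were lower and 0 higher with p under 0.05, beside 13.1% and 11.8% of all genes. Their median was -0.23, with 19 of 20 below 0, beside 57.0% of all genes. The lowest were Tekt1 (-0.54 ± 0.18 SE, limma adjusted p = 0.124), a tektin of the flagellum, Catsper1 (-0.44, limma adjusted p = 0.180), a sperm calcium channel subunit, and Cabyr (-0.41, limma adjusted p = 0.154), a calcium-binding protein of the tail. The highest were Gapdhs (0.21, limma adjusted p = 0.723), the sperm form of a glycolytic enzyme, Smcp (-0.03, limma adjusted p = 0.956), a protein of the sperm mitochondrial capsule, and Ldhc (-0.13, limma adjusted p = 0.372), the germ cell lactate dehydrogenase. Tekt1, 1 of 20, passed without stem cell replicate 2 (-0.72, limma adjusted p = 0.0407), as did 4.25% of all genes in that direction. For 8 measured markers of meiotic spermatocytes the median was -0.20, with 0 past the threshold in limma and, before adjustment, 3 lower and 1 higher with p under 0.05. One of the 8 passed without stem cell replicate 2, Piwil1 (-0.77 over all arrays), which was named after its values were seen. In that setting 4.25% of all genes passed as lower and 3.34% as higher. The medians of the 7 genes, of the genes of the exchange, of the other spermatid genes and of the meiotic markers thus lay between -0.23 and -0.20, and no difference between these lists was tested. Without stem cell replicate 1 they were -0.08, -0.12, -0.11 and -0.06 in the same order, against -0.04 for all genes. Leaving out stem cell replicate 3 instead gave -0.31, -0.30, -0.38 and -0.26, against -0.09 for all genes.

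**Figure D4:**
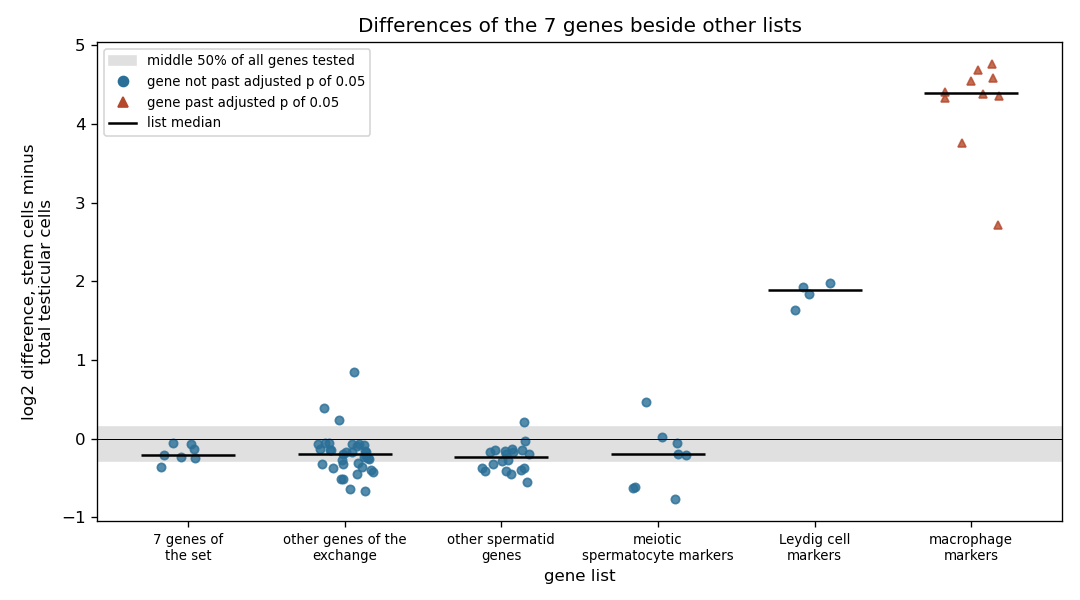
Log2 difference between stem cells and total testicular cells for each measured gene of 6 lists (points; triangles passed an adjusted p of 0.05 in limma, circles did not), with list medians as bars and the middle 50% of all genes in grey. The 7 genes, the other genes of the exchange, the other spermatid genes and the meiotic markers have medians from -0.23 to -0.20, while all 10 macrophage markers passed, with a median of 4.39.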

How the data were processed

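RNA of 6 mouse testis cell samples was hybridised to 1 Affymetrix array each. The values are the log2 probe set summaries that the authors deposited; MAS5 and RMA are both listed, with no role, per the submitters' processing notes, and the log2 scale was read from the values (1.20 to 13.20). Scanner intensities were not used here, so signal over background, set at 2.37 by the 95th percentile over 27 bacterial controls, takes the place of depth. Sample titles gave the groups and the replicate numbers. After 64 control probe sets were set aside, 22626 were fitted with limma 3.58.1 in R 4.3.3 (lmFit, eBayes with an intensity trend, two-sided, Benjamini-Hochberg over all probe sets, threshold 0.05), with no filter on dim probe sets. Each gene was represented by its brightest probe set over the 6 arrays. The fit was tested on simulated data with known changes, 50 probe sets of each size. It recovered 0 of 50 changes of 0.5 log2 units, 22 of 50 of 1, 42 of 50 of 2 and 50 of 50 of 4, with 3 false calls. Fluidics rounds were read per the file headers, with run starts under 15 minutes apart as 1 round.

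The members, lists and tests were chosen with earlier results of these data known. Named genes are the 7, the BET genes Brd2 and Brd3, the 3 lowest and 3 highest of the exchange and the spermatid lists and any of these past the threshold, and the 5 nearest profiles. Replicate numbers were not taken as pairs, and the sample titles do not say whether they are. Deviations from group means correlated at -0.01, 0.01 and 0.30 for numbers 1, 2 and 3. Unlike numbers gave -0.35 to 0.30, so these correlations cannot settle it. Alternatives were other normalizations, leaving out dim probe sets, a block for the replicate number or the fluidics round, other variance models, gene means, a stricter threshold, and leaving out each array. The fluidics module as a block was added after seeing the data.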

Additional observations from a re-analysis of the deposited data

How the results depend on the processing

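None of the 11 probe sets passed an adjusted p of 0.05 in limma under any of 16 alternatives each (176 values). Adjusted p ran down to 0.0942, and 22 of the 176 values had an unadjusted p under 0.05. In the main setting, 13.1% of all genes were lower and 11.8% higher at that unadjusted p. The share of all genes over the alternatives was not counted. The direction turned in 6 of the 176 values. With quantile normalization the brightest Prm1 probe set gave 0.013, Prm2 0.0042 and the dimmer Tnp1 probe set 0.036. Leaving out 1 array moved that Tnp1 probe set between -0.14 and 0.056. Median centring moved the median of all genes to -0.16 and that of the 7 genes to -0.32. Centring on hybridization controls moved them to -0.22 and -0.37. Both settings shift every gene of an array alike, so they leave the distance of the 7 genes from all genes as it was. Quantile normalization gave -0.15 for the 7 genes, 5 of them below 0, and -0.07 for all genes. Across the alternatives Prm3 ran from -0.68 to -0.08 and Hils1 from -0.40 to -0.03. The brighter probe set of Brdt ran from -0.52 to -0.16 and the dimmer one from -0.55 to -0.02. The lowest values of Prm3 and Hils1 and the highest of both Brdt probe sets came from the fluidics module block. That block rests on 1 array of each group.

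Over all genes, 202 were higher and 17 lower in the main setting. Median centring gave 46 lower. Centring on hybridization controls gave 516 higher and 221 lower. The replicate block gave 644 higher and 93 lower, and the replicate block changed no call of the 7 genes. The fluidics round as a block gave 719 and 48. No intensity trend gave 80 and 2, and array weights 524 and 79. Gene means gave 97 and 3, and an adjusted p of 0.01 gave 40 and 0. The fluidics module as a block, with 1 residual degree of freedom, gave 0 and 0 in limma (1125 higher and 982 lower at an unadjusted p under 0.05). Leaving out 1 array gave 28 to 796 higher and 0 to 527 lower, and between 0 and 4 lower and 0 and 1 higher genes of the exchange, 0 and 1 lower spermatid genes and 0 and 1 lower BET genes. Within 0.5, 1 or 2 log2 units of the array maximum on all arrays lay 3, 4 and 6 of the 11 probe sets. The causes were not tested.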

Other observations

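H1f6, the testis linker histone H1t, read 2.84, 2.45 and 2.19 in the stem cell arrays, against 2.83, 2.82 and 2.53 in the total testicular cell arrays, near the background of 2.37 in both groups, so its probe set carries little information on this histone. The gene was named after its values were seen.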
